A study of Rattus norvegicus with 2 samples.

Results

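Immediate early transcription factors and dual-specificity phosphatases were followed in rat microglia after oxygen-glucose deprivation (OGD). A probe set, the group of short probes that reads 1 transcript region on an Affymetrix array, was a member if the platform annotation gave it exactly 1 gene and that gene belonged to the Klf, Dusp, Egr or Ier series, the Fos, Jun, Nr4a or Zfp36 families, or was Atf3, Maff, Mafk, Btg1 or Myc. This gave 58 of the 14217 genes that have such a probe set, read by 101 of the 20826 probe sets that name 1 gene. Btg2, also named by the rule, was not analysed here. The rule used gene symbols and no measured values.

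The tested cells were microglia, the resident macrophages of the brain, exposed to OGD for 3 h (1 array), and they were set against resting microglia with no exposure (1 array). OGD withholds oxygen and glucose together and serves as a culture model of ischaemia. Both came from the Sprague Dawley rat background and grew in DMEM with 10% FCS, a serum-containing medium. Whether cells were returned to oxygen and glucose before harvest, and whether cells of several animals were pooled, is not given in the labels. With 1 array in each group no test can be run and no spread between cultures is known, so each difference describes these 2 arrays only. Values are linear intensities, and differences are log2 OGD minus log2 resting. The floor of measurement was the median of all probe sets outside the controls, 19.7 on the OGD array and 19.6 on the resting array.

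Immediate early genes are transcribed within minutes of a stimulus without new protein synthesis, and most of their mRNAs are short-lived. MAP kinases activate the transcription factors that bind their promoters, among them serum response factor at CArG boxes and CREB at cyclic AMP response elements. Fos, Jun, Egr, Klf and Nr4a proteins carry the response on to later genes, while dual-specificity phosphatases remove phosphate from MAP kinases, and Zfp36 proteins speed the decay of AU-rich mRNAs such as those of cytokines. In microglia this programme is known as part of the early response to injury and inflammatory signals.

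None of the members differed by 1.5-fold between the arrays. Of the 101 probe sets, 63 were above the floor on both arrays, 3 on the OGD array only and 35 on neither. The 66 measured probe sets belonged to 46 genes, of which 0 probe sets were higher and 0 were lower on the OGD array by 1.5-fold or more. Over all 12231 measured probe sets that name 1 gene, 0.0899% were higher and 0.0736% were lower by that margin. At so low a background a count of 0 does not set the members apart. Past 1.5-fold in either direction were 0.164% of all. At 1.2-fold 1 of the 66 was lower, a Klf3 probe set, and 0 were higher, against 4.21% of all measured probe sets lower, 3.89% higher and 8.1% in either direction.

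The members' differences ran between -0.30 and 0.19, with 30 probe sets higher, 32 lower and 4 equal on both arrays, and a median of 0. Over all measured probe sets the median was -0.003, with 43.7% higher and 50.3% lower. The SD of the differences was 0.108 among the members and 0.153 among all. Differences under 1.1-fold were found for 51 of the 66 members, or 77.3%, against 66.5% of all measured probe sets. No test was run on this contrast in spread.

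**Figure D1:**
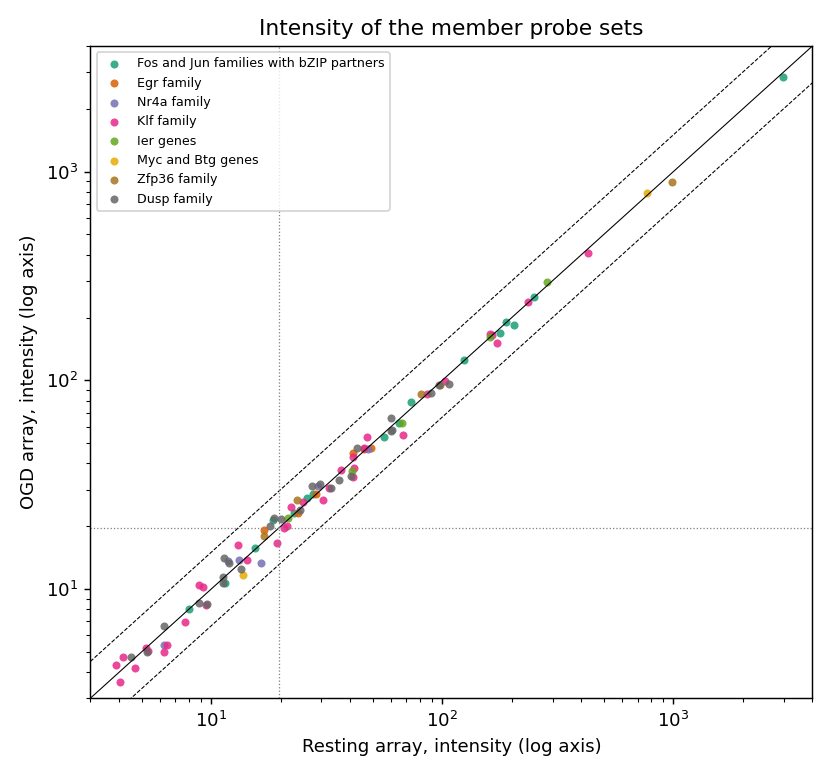
Intensity of each of the 101 member probe sets on the OGD array (vertical, log axis) against the resting array (horizontal, log axis), coloured by family. The solid line marks equal intensity, the dashed lines 1.5-fold and the dotted lines the floors of 19.7 (OGD) and 19.6 (resting). No point lies outside the dashed lines.

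**Figure D2:**
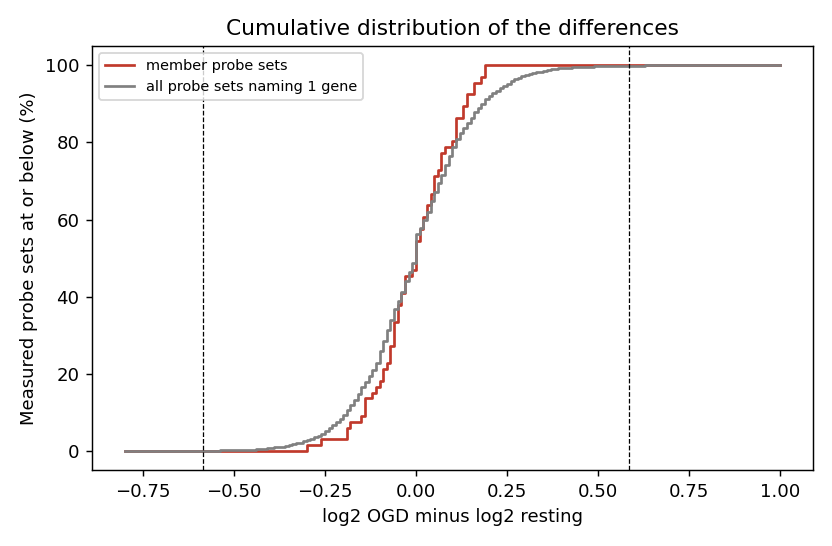
Share of measured probe sets with a difference at or below the value on the horizontal axis (log2 OGD minus log2 resting), for the 66 members and for all 12231 probe sets that name 1 gene. Dashed lines mark 1.5-fold. The members' curve ends at -0.30 and 0.19, inside both lines.

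The Fos and Jun proteins pair through leucine zippers to form AP-1, which binds its site as a dimer. Fos, the best-known immediate early gene, had intensities of 169 on the OGD array and 177 on the resting array in one probe set, and 28.6 against 27.6 in the other. The differences were -0.06 and 0.05, so the probe sets did not share a direction. Fosl1, a Fos relative without a transactivation domain, had 79.0 on the OGD array and 73.4 on the resting array, a difference of 0.10. Its relative Fosl2 had 27.2 against 26.1 (difference 0.06), and a further probe set above the floor on the OGD array only, at 21.5 against 18.5, gave a difference of at least 0.13. Fosb was under both floors, at 10.7 on the OGD array and 11.5 on the resting array, and is given no fold.

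Jun had 3 measured probe sets that did not agree. One read 185 on the OGD array and 204 on the resting array, a difference of -0.14, while the others read 191 against 189.7 and 125 against 124, differences of 0.008 and 0.009. The suffix _s_at, which marks probes shared by several transcripts, was carried by the first and by the probe set at 191. Junb, an inducible member of the Jun family, had 249.6 on the OGD array and 250.3 on the resting array, a difference of -0.004 that became 0.021 with quantile scaling and 0.025 with lowess scaling. Jund, which is expressed more constantly than its relatives, had 2855 against 2980.4 and 53.3 against 56.0, and both differences were close together, at -0.06 and -0.07. The Jund probe set at 53.3 also carried the suffix _s_at. A further Jund probe set was under both floors.

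Small Maf proteins lack a transactivation domain and pair with other leucine zipper factors. Maff had 23.1 on the OGD array and 22.9 on the resting array (difference 0.02), and Mafk had 62.8 against 65.2 (-0.05). Atf3, a stress-induced factor of the ATF family, was listed at the same value of 8.0 on both arrays, under the floor, so its level was not measured. In all, 13 of the 16 probe sets of this group were measured, 7 higher and 6 lower, with a median of 0.008.

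Egr proteins bind GC-rich sites through zinc fingers and are classical targets of serum response factor. Egr1 had an intensity of 23.0 on the OGD array and 23.7 on the resting array, a difference of -0.04 from a probe set that lay just above the floor. Egr2, known for myelination and for macrophage differentiation, had 44.8 against 41.1 (difference 0.12), and its other probe set was under both floors. Egr3 had 47.2 on the OGD array and 49.2 on the resting array, a difference of -0.06. Egr4 had 47.1 against 45.9 in one probe set, a difference of 0.03, and 28.6 on both arrays in the other. The median of the 5 measured Egr probe sets was 0, which became -0.007 with quantile scaling.

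Promoters were searched for elements through which genes are known to answer a stimulus. A window of 250 bases before to 50 after the annotated start was found in RefSeq for 45 of the 58 member genes. A CArG box, the serum response factor element, was present in 5 of these 45 windows (Dusp5, Egr1, Egr2, Klf6 and Zfp36), or 11.1%, against 1.77% of the windows of 27457 genes. The cyclic AMP response element TGACGTCA was also present in 5 (Dusp1, Dusp11, Ier2, Jund and Maff), or 11.1%, against 2.0%. An AP-1 site, TGACTCA on either strand, was present in 2.22% against 5.04%, and the core of the hypoxia response element, ACGTG on either strand, in 33.3% against 20.9%. Elements outside the window, or with a looser spelling than the one searched, were not seen. Members that are not listed, or have no window, may thus still carry one. The shares are descriptions of sequence, and a match is no evidence of binding in these cells. No test was made, and members of a family share ancestry.

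The upstream 250 bases are shown for 5 of the measured members with a CArG box or a cyclic AMP response element, chosen as well-known immediate early genes, from RefSeq on build GRCr8, with the matched element in capitals.
Egr1, plus strand, chr18:26736828-26737077: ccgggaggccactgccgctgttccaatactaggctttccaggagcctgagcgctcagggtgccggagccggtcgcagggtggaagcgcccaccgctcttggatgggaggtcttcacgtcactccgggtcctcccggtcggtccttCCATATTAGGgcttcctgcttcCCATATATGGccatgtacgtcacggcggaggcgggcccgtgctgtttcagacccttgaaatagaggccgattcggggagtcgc
Egr2, minus strand, chr20:21054442-21054691: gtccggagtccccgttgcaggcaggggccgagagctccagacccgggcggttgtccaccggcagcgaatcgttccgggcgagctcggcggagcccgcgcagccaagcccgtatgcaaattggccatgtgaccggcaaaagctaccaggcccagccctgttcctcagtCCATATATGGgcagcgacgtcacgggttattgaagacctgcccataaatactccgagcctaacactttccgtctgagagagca
Zfp36, minus strand, chr1:92799109-92799358: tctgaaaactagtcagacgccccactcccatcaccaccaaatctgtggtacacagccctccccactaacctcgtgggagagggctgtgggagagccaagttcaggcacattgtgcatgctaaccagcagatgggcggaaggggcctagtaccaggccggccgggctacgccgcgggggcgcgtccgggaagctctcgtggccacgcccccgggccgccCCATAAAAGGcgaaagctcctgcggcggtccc
Dusp1, plus strand, chr10:17184603-17184852: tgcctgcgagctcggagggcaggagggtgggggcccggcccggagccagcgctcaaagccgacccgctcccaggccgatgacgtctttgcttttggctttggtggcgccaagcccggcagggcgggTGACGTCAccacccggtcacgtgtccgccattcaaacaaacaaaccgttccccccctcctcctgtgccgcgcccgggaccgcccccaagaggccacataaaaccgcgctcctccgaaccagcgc
Ier2, plus strand, chr19:40399123-40399372: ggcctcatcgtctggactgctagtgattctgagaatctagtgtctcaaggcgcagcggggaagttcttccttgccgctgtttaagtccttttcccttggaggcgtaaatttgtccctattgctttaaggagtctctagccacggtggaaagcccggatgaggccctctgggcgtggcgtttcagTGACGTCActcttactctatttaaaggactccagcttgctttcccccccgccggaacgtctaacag
Egr1 carried 2 CArG boxes, CCATATTAGG and CCATATATGG, the first beginning 105 bases and the second 83 bases before the annotated start. Egr2 carried CCATATATGG at the same distance of 83 bases. In Zfp36 the box CCATAAAAGG began 32 bases before the start. The cyclic AMP response element began 124 bases before the start in Dusp1 and 66 bases before it in Ier2. The median difference of the brightest probe set was taken over the measured member genes that have a window. It was 0.03 for the 4 with a CArG box and -0.004 for the 31 without. For the cyclic AMP response element it was 0.02 for the 5 genes with the element and -0.008 for the 30 without. For the hypoxia core it was -0.007 for 12 genes with it and -0.004 for 23 without. Over all 46 measured member genes, with or without a window, the median was -0.03. The ranges were wide beside these medians, -0.08 to 0.12 for genes with a CArG box and -0.14 to 0.19 for genes with the cyclic AMP response element.

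Nr4a proteins are orphan nuclear receptors that are induced rapidly and damp inflammatory genes in macrophages. Nr4a1 had 31.3 on the OGD array and 29.1 on the resting array, a difference of 0.11. Nr4a3 had 46.7 against 47.7 (-0.03) in 1 of its 3 probe sets, the others being under both floors. Nr4a2, known for its role in dopaminergic neurons and for repressing inflammatory genes in microglia, was under both floors in both of its probe sets, at 13.8 and 13.7 on the OGD array against 13.2 and 11.8 on the resting array. Of the 6 probe sets in this family only 2 were measured.

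Ier genes encode proteins of rapid stimulus responses. Ier2 had 36.8 on the OGD array and 40.6 on the resting array, a difference of -0.14. Ier3, a stress-inducible regulator of apoptosis, was deposited at 161 on both arrays, identical in every digit. For Ier5, which takes part in the heat shock response, the 3 probe sets read 296 against 284 (0.06), 62.5 against 67.0 (-0.10) and 21.96 against 21.5 (0.03), and so differed in sign.

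Among growth regulators, Btg1, an antiproliferative factor, had 794 on the OGD array and 769 on the resting array, a difference of 0.05. Myc, the growth-promoting bHLH factor, was under both floors at 11.7 on the OGD array and 13.8 on the resting array.

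Zfp36 proteins bind AU-rich elements through CCCH zinc fingers and recruit the deadenylation machinery. Zfp36, also called tristetraprolin, which targets Tnf mRNA, had 86.3 on the OGD array and 80.9 on the resting array, a difference of 0.09. Zfp36l1 had 895 against 991, a difference of -0.15. Zfp36l2 had 94.5 against 97.7 (-0.05) in its brightest probe set and 26.6 against 23.5 (0.18) in another, and a further probe set was under both floors. The members of this family therefore had differences of either sign, with 2 of 4 measured probe sets higher.

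Klf factors bind GC-rich and CACCC elements through C2H2 zinc fingers, and only some of them are immediate early genes. The largest difference of any member was found here. Klf3, a repressor that works with CtBP, had 55.0 on the OGD array and 67.9 on the resting array, a difference of -0.30 (1.23-fold lower). But a second probe set of the gene had 47.3 against 46.0, a difference of 0.04, and a further one was under both floors. Klf9, which is induced by glucocorticoids, had 34.4 on the OGD array and 41.3 on the resting array, a difference of -0.26 in the only measured probe set of 3. Klf16 had 151 against 172 (-0.19), also from a single probe set, and Klf10, a gene induced by TGF-beta, had 30.4 against 32.4 (-0.09).

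Klf2 restrains inflammatory activation in myeloid and endothelial cells, as does Klf4 in endothelial cells. Klf2 was deposited at 236 on both arrays in its brightest probe set, had 26.3 against 25.01 (0.07) in another, and had 26.8 against 30.6 (-0.19) in a probe set with the suffix _x_at, which marks probes that may also match other genes. The other Klf2 probe sets were under both floors. Klf4 had 166 on the OGD array and 164 on the resting array, a difference of 0.02. Klf6, which is induced by injury, had 407 against 429 (-0.08), 167 against 161 (0.05) and 20.1 against 21.3 (-0.08). The Klf6 differences thus had either sign, and the last of these probe sets was near the floor.

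Klf7, known for axon growth, had the most measured probe sets of any member, with 86.2 on both arrays, 38.1 on the OGD array against 41.5 on the resting array (-0.12), 37.1 against 36.4 (0.03) and 24.7 against 22.1 (0.16). Klf15, a regulator of metabolic genes, had 53.5 against 47.4 (0.17) in a probe set with the suffix _s_at, while its other 2 probe sets were under both floors. Klf11 had 43.1 against 41.0 (0.07), Klf13 98.8 against 102 (-0.05) and Klf5 19.7 against 20.6 (-0.06). The other Klf11 probe sets were under both floors. The value of Klf5 on the OGD array was barely above the floor, and the other 3 probe sets of that gene were below it. Klf1, the erythroid factor, and the repressor Klf12 were under both floors. Over the 20 measured Klf probe sets 8 were higher, 10 lower and 2 equal, with a median of -0.03, and of -0.01 after quantile or lowess scaling.

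Inducible nuclear phosphatases of the Dusp family switch off MAP kinases after a stimulus. Dusp1, the main brake on p38 and JNK in macrophages, had 31.2 on the OGD array and 27.4 on the resting array, a difference of 0.19 (1.14-fold higher), and its other probe set was under both floors at 6.64 against 6.28. Dusp2, known from activated leukocytes, had 86.7 against 89.7 (-0.05), and Dusp4 had 57.2 against 60.2 (-0.07). Dusp5, a nuclear phosphatase for ERK, was under both floors at 11.4 on the OGD array and 11.3 on the resting array.

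The cytoplasmic phosphatases Dusp6, Dusp7 and Dusp9 act mainly on ERK. Dusp6, a feedback target of ERK signalling, had 95.5 on the OGD array and 107 on the resting array (-0.16), 57.8 against 60.5 (-0.07) and 31.8 against 29.6 (0.10). The probe sets at 95.5 and 57.8 were thus lower, and the other was higher. Dusp7 and Dusp9 were under both floors, as were Dusp8 and Dusp10, phosphatases of JNK and p38.

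The remaining Dusp genes encode atypical phosphatases, which lack the MAP kinase binding domain and most of which are not known as immediate early genes. Dusp14 had 35.0 on the OGD array and 40.1 on the resting array (-0.20), Dusp3 had 47.3 against 42.9 (0.14) and Dusp12 had 65.7 against 60.2 (0.13). The other Dusp3 probe set was under both floors. Dusp22, which acts on JNK signalling, had 95.2 against 97.2 (-0.03). Dusp19 had 33.5 against 35.7 (-0.09), Dusp15 had 24.0 against 24.3 (-0.01), and the 2 measured probe sets of Dusp18 had 30.5 against 33.1 (-0.12) and 21.6 against 20.1 (0.10). Dusp26 at 21.9 against 18.7 and Dusp11, an RNA phosphatase, at 20.1 against 17.9 were above the floor on the OGD array only, with differences of at least 0.16 and at least 0.03. Dusp23 was under both floors. Of 26 Dusp probe sets 16 were measured, 7 higher and 9 lower, with a median of -0.02.

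**Figure D3:**
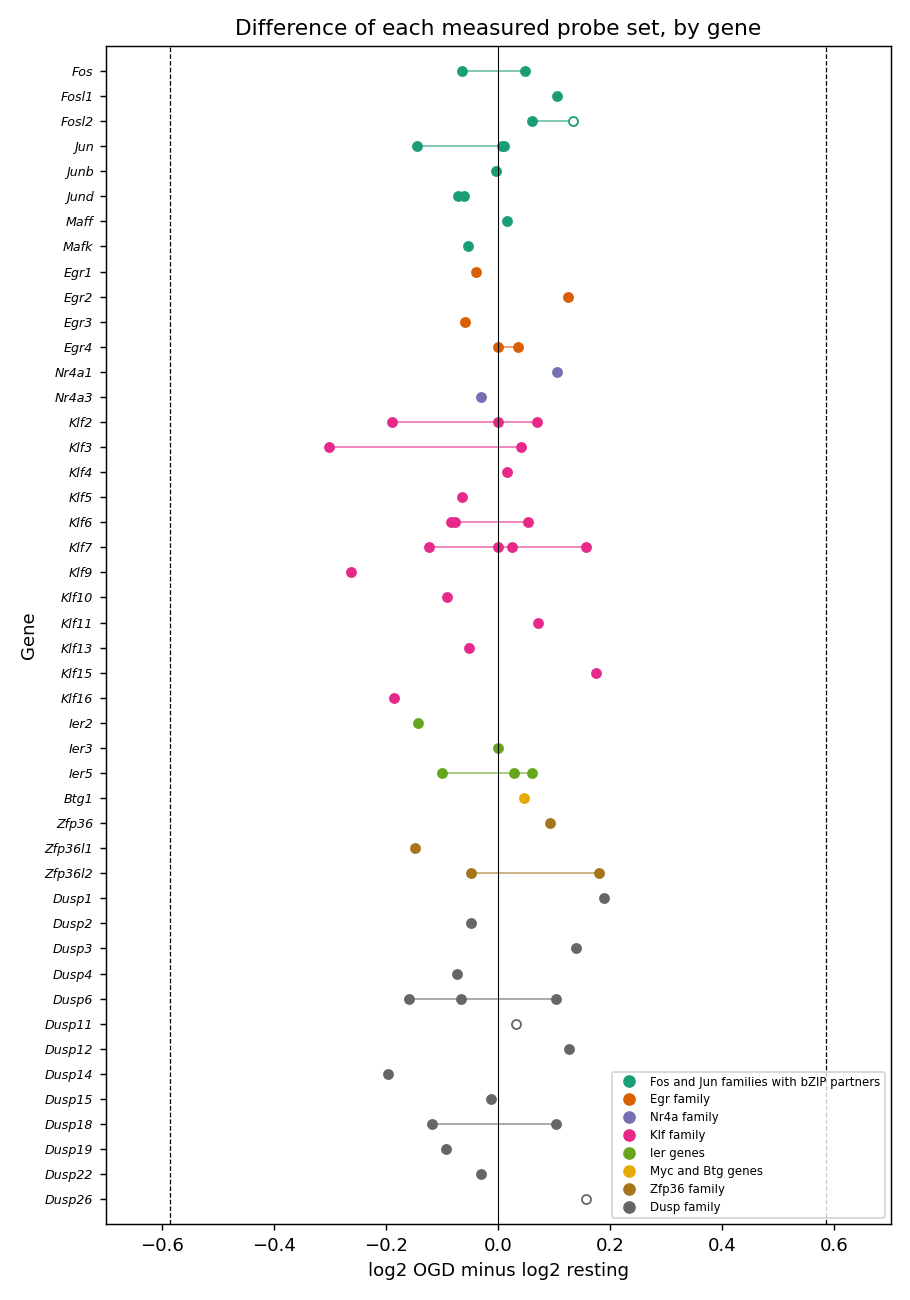
Difference (log2 OGD minus log2 resting) of each of the 66 measured member probe sets, with 1 row per gene and a line joining probe sets of the same gene. Open circles are bounds from probe sets above the floor on the OGD array only, and dashed lines mark 1.5-fold. Lines cross 0 for most of the 13 genes with several probe sets.

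Probe sets of the same gene agreed poorly in sign. Of 13 member genes with at least 2 measured probe sets, 2 had all of them on the same side of 0, Fosl2 (higher, with 1 value a bound) and Jund (lower). The other 11 had both signs or a value of exactly 0. The Fosl2 pair includes a probe set with the suffix _a_at, and the Jund pair 1 with _s_at. Neither pair remains without suffixed probe sets. Over all 2074 genes with at least 2 measured probe sets 40.5% had the same sign throughout, and among those with exactly 2 the share was 44.8%, against 2 of 7 member genes. The pooled SD within genes was 0.117 for the members and 0.149 for all genes. Over these same probe sets the SD of the differences without regard to gene was 0.106 for the members and 0.156 for all genes. The spread between probe sets of a member gene was thus no smaller than the spread among all 33 of these probe sets. The widest gap was that of Klf3, 0.34, and the narrowest that of Jund, 0.01. This SD covers noise that differs between probe sets, and leaves out effects common to them and the variation from culture to culture.

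The 12 genes under both floors in every probe set (Atf3, Fosb, Myc, Nr4a2, Klf1, Klf12, Dusp5, Dusp7, Dusp8, Dusp9, Dusp10 and Dusp23) could not be compared. The 35 member probe sets under both floors had intensities of 3.59 to 19.1 on the OGD array (median 10.3) and 3.89 to 19.3 on the resting array (median 9.48). A change confined to levels under the floor would not be seen.

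Genes around this programme were described by the brightest probe set of each gene, where 0.0731% of 9580 measured genes were higher and 0.0418% lower by 1.5-fold. None of the measured genes on 5 pathway lists passed 1.5-fold in either direction. Over all 9580 measured genes 42.8% were higher and 51.3% lower, which is the background for the counts of each list. Of 36 other rapid-response genes measured, 21 were higher and 14 lower, with a median of 0.03 against -0.008 over all measured genes. Sgk1, a serum- and glucocorticoid-induced kinase, had 37.4 on the OGD array and 31.4 on the resting array (0.25), and Hbegf, a growth factor of the EGF family, had 34.9 against 29.6 (0.24). Crem, a CREB relative that yields an inducible repressor, had 125 against 148 (-0.24) in a probe set with the suffix _s_at.

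Of 19 transcription factors and coactivators that switch on immediate early genes, 6 were higher and 12 lower, with a median of -0.04 that became -0.01 with quantile or lowess scaling. Elk4, a partner of serum response factor, had 48.2 on the OGD array and 58.5 on the resting array (-0.28), and its relative Elk1 had 34.1 against 40.3 (-0.24). Another Elk1 probe set, at 18.7 against 20.5, was above the floor on the resting array only, with a difference of -0.06 or beyond. Crem belonged to this list too.

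Of 24 MAP kinases and upstream or downstream kinases 11 were higher and 11 lower, with a median of 0. Mknk2, a kinase of the cap-binding protein eIF4E, had 161 on the OGD array and 189.8 on the resting array (-0.23). Map2k3, an activator of p38, had 113 against 100.2 (0.17), and Map3k1 had 531 against 589 (-0.15).

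Of 17 other inhibitors of receptor tyrosine kinase and cytokine signalling 9 were higher and 7 lower, with a median of 0.007. Rasa1, a GTPase-activating protein for Ras, had 47.6 on the OGD array and 34.6 on the resting array, a difference of 0.46 (1.38-fold higher) from a single measured probe set. Ppp2ca, the catalytic subunit of protein phosphatase 2A, had 32.2 against 39.7 (-0.30), with -0.22 in another probe set. Socs1, an inhibitor of JAK kinases, had 38.8 against 43.5 (-0.17), with -0.10 in another probe set.

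Of 19 further leucine zipper factors that can pair with Fos or Jun or bind related sites 5 were higher and 13 lower, with a median of -0.06 (-0.04 with lowess scaling). Batf2, an interferon-induced partner of Jun, had 42.2 on the OGD array and 53.8 on the resting array (-0.35). Cebpa, a myeloid differentiation factor, had 38.7 against 48.1 (-0.31), and another probe set, above the floor on the resting array only (16.4 against 19.8), had a bound at the floor and no measured difference. Bach1, a haem-regulated repressor, had 31.9 against 27.2 (0.23).

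**Figure D4:**
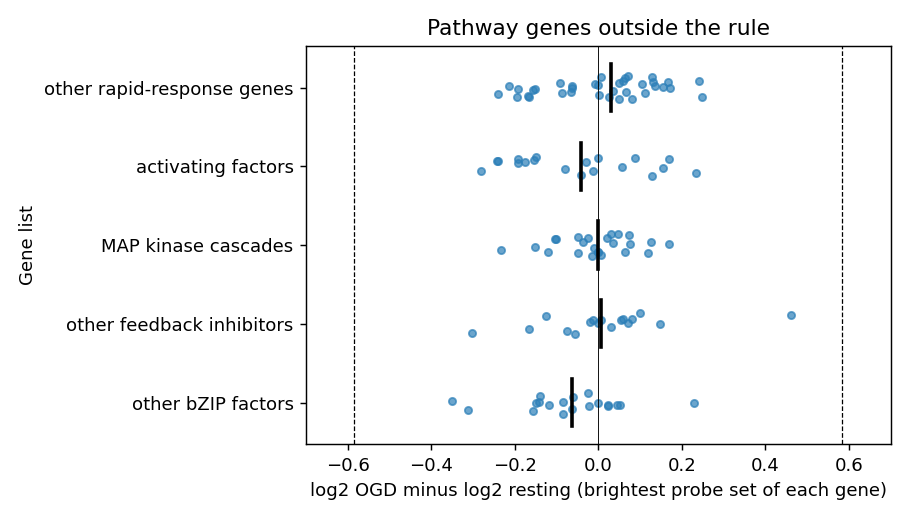
Difference (log2 OGD minus log2 resting) of the brightest probe set of each measured gene on 5 pathway lists outside the member rule, with the median of each list as a black bar. Dashed lines mark 1.5-fold, and all points lie between them. Rasa1 is the farthest point to the right and Batf2 the farthest to the left.

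The labelled cell type was checked against its markers. Of 16 microglial markers with a probe set 14 were measured, among them Aif1, Itgam, Cx3cr1, P2ry12 and Trem2, while Fcer1g and Gpr34 were under both floors. Trem2 (583), Cd68 (360) and Laptm5 (237) were the brightest on the OGD array, followed by Itgam at 56.5. Cx3cr1 (29.9 against 31.6) and Tmem119 (23.1 against 23.3) were closer to the floor, and Csf1r (19.3 against 21.9) was above it on the resting array only. Of the measured ones 13 were lower and 1, C1qc, was higher on the OGD array, with a median of -0.09 under each scaling tried, and the summed intensity of the 16 was 1605 on the OGD array and 1665 on the resting array. Astrocyte markers were measured for 4 of 8 genes, with Aqp4, Slc1a3, Aldh1l1 and S100b under both floors, and their summed intensity was 203 on the OGD array and 183 on the resting array. Of these 4, 3 were higher and 1 was lower. Gfap (36.9 on the OGD array against 27.4 on the resting array) and Slc1a2 (32.0 against 23.8) differed by 0.43 each, Gja1 (24.3 against 22.1) by 0.13 and Fgfr3 (63.3 against 65.2) by -0.04. The endothelial marker Vwf had 56.4 against 46.3 (0.28), while Pecam1, Cldn5, Kdr and Tek were under both floors. Of the neuron, fibroblast, endothelial and lymphocyte lists 1 or 2 genes each were measured, and of the oligodendrocyte list 4. Elavl3 of the neuron list (108) and Pdgfrb of the fibroblast list (104) were brighter on the OGD array than most microglial markers. The other measured genes of these lists, Syp and Col1a1, had 59.4 and 48.4. Levels of the markers thus did not clearly separate the lists, and they do not by themselves establish the cell type. The part of these marker differences in the members' values was not tested, and in RNA from a whole culture fewer cells of a type cannot be told apart from less RNA per cell.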

How the data were processed

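Total RNA was extracted with TRIzol and labelled with biotin by in vitro transcription from oligo(dT)-primed cDNA, per the labels' protocols. The deposited values are intensities, 1 per probe set and array; that their scale is linear was read from the values. How the authors summarised and scaled them is not given in the sources used here, so a change common to most genes cannot be seen.

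Of 31042 probe sets besides 57 controls, 20826 name 1 gene in the platform annotation, 436 several and 9780 none. Symbols of lists were matched after updating through Entrez IDs to RefSeq (assembly GRCr8), in which 20758 had their ID, and no member's symbol changed. Values under the floor (the 50th percentile of each array) were set to it, a probe set above it on at least 1 array was measured, and on 1 array only gave a bound. Calls used 1.5-fold, the threshold of the series' design text. A number of arrays this small limits the precision. All members are named, and from each list the 3 measured genes with the largest absolute difference of their brightest probe set. The members, lists and thresholds were chosen with earlier results of these data known. Calculations used Python 3.11.15, pandas 2.3.3 and statsmodels 0.14.6, and were tested on simulated arrays. The simulation set 2-fold changes in bright probe sets only, so it did not test recovery near the floor. Its noise was also smaller than the spread between these arrays (SD 0.153 over all measured probe sets), so recovery was nearly certain. Alternatives covered the floor, scaling, pseudocount, suffixed probe sets, value per gene, symbols and threshold.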

Additional observations from a re-analysis of the deposited data

How the results depend on the processing

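The count of member probe sets past 1.5-fold was 0 under each of the alternatives run: floors at the 30th or 70th percentile, no floor, a value above both floors required, centring, quantile scaling, lowess scaling, no suffixed probe sets, a pseudocount, updated symbols, 1 value per gene and, chosen after seeing the data, no probe sets equal on both arrays. It was also 0 at 2-fold. At 1.2-fold it was 1, the Klf3 probe set with a difference of -0.30. Without a floor the differences of all 101 probe sets ran from -0.32 to 0.32. The median difference lay between -0.03 (floor at the 70th percentile, or the brightest probe set of each gene) and 0.013 (quantile scaling), so its sign depended on the setting. The pooled SD within genes lay between 0.101 with the pseudocount and 0.152 without a floor. With scaling, the sign changed for 1 of the 62 members with unequal values, Junb. No paired analysis was possible because each group holds 1 array. With 35 of 101 members under both floors, the floor limits what could be compared.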

Other observations

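Some members had values that repeat between the arrays. Of the 101 probe sets 6 were deposited with the same number on both arrays, 4 of them above the floor (Klf2, Klf7, Egr4 and Ier3), which is 6.06% of the 66 measured members against 5.97% of all measured probe sets that name 1 gene. The median of 0 for the members rests on these, since it was -0.008 without them. Among the measured members 6 others had values that end in 0.165 or 0.665, within 0.00001, on each array, so that the intensities differ by whole steps of 0.5. They were Dusp2 and Dusp4 (each 3 units lower on the OGD array), Dusp22 (2 lower), Nr4a3 (1 lower), Jun (1 higher) and Dusp12 (5.5 higher). Values of this form made up 9.09% of the measured members and 5.58% of all measured probe sets. Ier5l, an Ier5 relative outside the rule, was at 101 on both arrays.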
